A study of Mus musculus with 12 samples.

Results

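Costimulatory molecules were followed in tumors of a mouse model of triple-negative breast cancer as 7 genes, Cd40, Cd80, Cd86, Icosl, Cd28, Icos and Cd40lg. They were chosen by name, as the receptors and ligands through which antigen-presenting cells and T cells costimulate each other, and make up 7 of the 750 genes measured. All 7 passed the filter on low values that left 689 genes for testing. The tumors arose in K14-Cre;Brca1f/f;Trp53f/f mice, in which Cre under the keratin 14 promoter deletes both genes in epithelium, and tumor chunks were transplanted into the mammary fat pads of syngeneic FVB/129P2 mice. Every tumor, vehicle included, therefore carried the same deletions in a host with intact immune cells. The 4 groups of 3 tumors each were harvested at 3 days. Vehicle mice received the solvents alone. The ADU-S100 group received a single intratumoral injection of 50 μg of this STING agonist in 40 μl, the olaparib group received the PARP inhibitor olaparib at 50 mg/kg daily, and the combination group (Olaparib+ADUS100) received both. RNA of tumor chunks was counted on the nCounter platform, in which color-coded probes are counted one by one without amplification.

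A T cell that meets its antigen needs a costimulatory signal besides that of its antigen receptor. CD80 and CD86 on antigen-presenting cells give it through CD28, which resting T cells carry, and ICOS ligand (ICOSL) gives it through ICOS, which appears on T cells after activation. In the reverse direction, CD40 ligand on activated helper T cells engages CD40 on dendritic cells, macrophages and B cells, and this licenses them to present antigen and to display more CD80 and CD86. Cd40, Cd80, Cd86 and Icosl thus belong to the presenting side of the contact, although other cells can also express Cd40 and Icosl, whereas Cd28, Icos and Cd40lg are genes mainly of T cells.

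In tumors given both drugs, Cd40 lay above 8 and Icos above 7 of the 9 other tumors. Cd40, the receptor on the presenting side, was at 68.0 normalized counts or more in all 3 combination tumors and at or below 51.3 in 8 of the 9 other tumors. Icos, the activation-induced receptor on the T cell side, was 43.7 to 56.9 in the combination and 6.93 to 28.2 in vehicle. Cd28, the constitutive T cell receptor of the same family, instead had its highest group mean under ADU-S100 alone. Its highest single tumor was olaparib tumor 1517 at 115, and ADU-S100 and olaparib were not told apart (unadjusted p = 0.329 by limma). No member passed an adjusted p of 0.05 in any comparison by limma, and neither did any of the 689 genes (0% called), so the values below describe differences that did not survive adjustment. Unadjusted, 4 of the 49 limma results for the members (7 genes in 7 comparisons) were below 0.05, or 8.16%, against 7.01% of those of all genes.

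**Figure D1:**
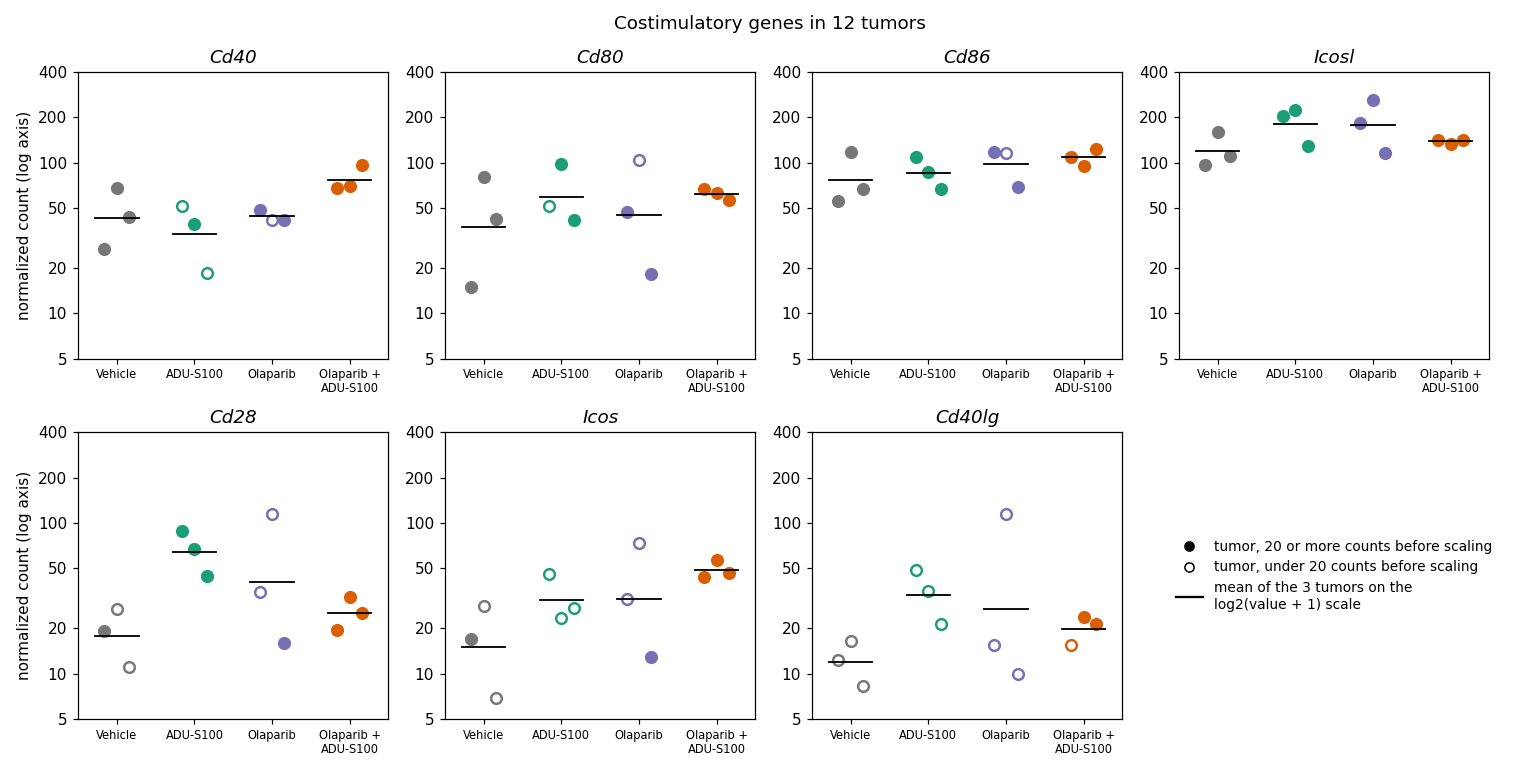
Normalized counts (log axis) of the 7 genes in each tumor of the 4 groups. Points are single tumors, open where the gene had under 20 counts before scaling, and lines are means of 3 tumors on the log2(value + 1) scale. The 3 combination tumors lie at 68.0 to 95.9 for Cd40 and at 43.7 to 56.9 for Icos, and the highest olaparib point of Cd28, Icos and Cd40lg is the same tumor.

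How well each gene was measured differed between tumors. Deposited values are whole multiples of what 1 count is worth in a tumor, and that step ranged from 0.589 to 10.5 normalized counts, a ratio of 17.8. Dividing by the step gives the counts before scaling (totals of 106206 to 1519471 per tumor). The background, taken as the median count of the 30 lowest genes, was 3 to 7 counts in every tumor. After scaling it became 3.54 to 31.4 normalized counts, the highest value being that of olaparib tumor 1517. Combination tumors were all among the deepest, with totals from 1339258 to 1491854. The tumor numbers begin with 12 (vehicle 1269, combination 1251 and 1270) or 15 (all 9 remaining tumors), a split whose meaning is not given. Separate tumor numbers are given, but the labels do not state that each came from a separate mouse, so p-values measure the spread between these tumors. RNA was from whole tumor pieces, in which fewer cells of a type and less RNA per cell cannot be told apart.

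Icosl was the best measured member, at 8.33 to 32.7 times background in the 12 tumors. Cd86 followed at 3.67 to 22.5 times and Cd80 at 3 to 13.8 times. Cd40 ranged from 1.33 to 16.7 times, with 2 tumors under 3 times background. The T cell genes were near background in many tumors. Cd28 lay at 2.67 to 6.80 times, Icos at 1.67 to 9.86 times and Cd40lg at 1.33 to 4.14 times, and Icos and Cd40lg were each under 3 times background in 6 of 12 tumors. In the combination, by contrast, Icos was 8.14 to 9.86 times background, from 54 to 69 counts, against 7 to 25 counts in the 9 other tumors. Counts before scaling rise with the total of a tumor, and the combination tumors were among the deepest. Vehicle tumor 1269 and olaparib tumor 1521, also deep, had 25 and 22 counts. On the normalized scale ADU-S100 tumor 1506 at 45.6 and olaparib tumor 1517 at 73.4 were above the lowest combination tumor at 43.7.

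**Figure D2:**
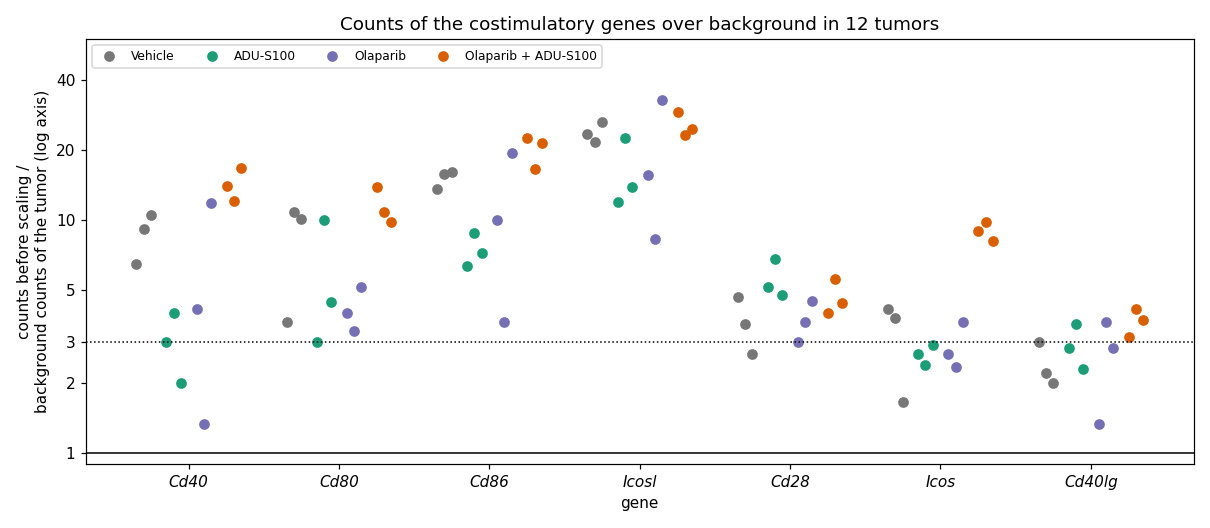
Counts before scaling divided by the background count of the same tumor (log axis) for each gene, with points for the 12 tumors colored by group. The solid line marks background and the dotted line 3 times background. Icos is at 8.14 times or more in the combination tumors and at or under 4.17 times in all others. Counts before scaling also rise with the total of a tumor, and the combination tumors were among the deepest.

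Cd40, whose product licenses antigen-presenting cells, measured 26.6, 68.4 and 43.6 normalized counts in the vehicle tumors. It was 51.3, 39.3 and 18.5 after ADU-S100, 48.7, 41.9 and 41.8 after olaparib, and 68.0, 70.1 and 95.9 after the combination. The combination did not overlap either single treatment, and vehicle tumor 1529 at 68.4 was the only other tumor to reach it. Against ADU-S100 the log2 difference was 1.18 (SE 0.46, unadjusted p = 0.0269, adjusted p = 0.492 by limma), against olaparib 0.79 (SE 0.46, adjusted p = 0.630), and against vehicle 0.83 (SE 0.46, adjusted p = 0.705). Set against all 9 other tumors together, the combination was higher by 0.93 on the log2 scale (exact two-sided permutation p = 0.0273, adjusted over the 689 genes 0.482). In that comparison 7.98% of all genes were higher at an unadjusted p under 0.05.

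Before scaling, Cd40 had 39, 46 and 63 counts in the vehicle tumors, 18, 20 and 13 after ADU-S100, 25, 4 and 71 after olaparib, and 84, 85 and 117 in the combination. With the background subtracted the difference from the 9 other tumors was 1.37 (exact p = 0.0318). Leaving out ADU-S100 tumor 1513 lowered the difference from ADU-S100 to 0.77, and leaving out combination tumor 1539 lowered that from the 9 other tumors to 0.78 (exact p = 0.109). The difference from vehicle was 0.49 without vehicle tumor 1269 and 0.30 with quantile normalization. Among tumors numbered 15, combination tumor 1539 at 95.9 was above all 8 others, and among those numbered 12, vehicle tumor 1269 at 26.6 was below both combination tumors.

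Cd80 and Cd86, the B7 ligands of CD28, overlapped between all groups. Cd86 was 55.9, 117 and 67.2 in vehicle, 108, 86.4 and 67.1 after ADU-S100, 117, 115 and 68.9 after olaparib, and 109, 95.6 and 123 after the combination. The largest log2 difference of Cd86 was that between combination and vehicle, 0.51 (SE 0.40, 95% interval -0.38 to 1.39, adjusted p = 0.930). Cd80 was 15, 80.3 and 42.3 in vehicle and 51.3, 98.2 and 41.4 after ADU-S100. It was 46.8, 105 and 18.3 after olaparib and 67.2, 62.7 and 56.6 after the combination. The combination tumors were close together at 62.2 ± 5.35 (SD, n = 3), inside the range of every other group, whose SDs were 30.4 to 44.1. Its log2 difference from vehicle was 0.72 (SE 0.69, 95% interval -0.80 to 2.24, adjusted p = 0.949). That difference was 0.087 without vehicle tumor 1269, 1.26 without vehicle tumor 1529 and 0.16 with quantile normalization.

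Icosl, the ligand of ICOS, was 96.2, 161 and 110 in vehicle, 205, 222 and 128 after ADU-S100, 183, 262 and 115 after olaparib, and 142, 134 and 141 after the combination. The single treatments held the highest tumors and overlapped with vehicle. Log2 differences from vehicle were 0.59 for ADU-S100, 0.56 for olaparib and 0.21 for the combination (SE 0.41 each, adjusted p = 0.809, 0.623 and 0.989). With each tumor scaled to the same median they were 0.18, 0.22 and 0.0094. On the deposited scale that of olaparib was 0.28 without olaparib tumor 1517, and that of the combination 0.060 without vehicle tumor 1269.

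Icos, the inducible receptor for that ligand, was 17.1, 28.2 and 6.93 in vehicle and 45.6, 23.6 and 27.1 after ADU-S100. It was 31.2, 73.4 and 13 after olaparib and 43.7, 56.9 and 46.7 after the combination. The combination lay above all vehicle tumors, and olaparib tumor 1517, whose 73.4 rests on 7 counts, was the highest of all. The combination exceeded vehicle by 1.63 on the log2 scale (SE 0.63, 95% interval 0.24 to 3.01, unadjusted p = 0.0252, adjusted p = 0.472 by limma). Without vehicle tumor 1536, which had 10 counts, the difference was 1.12 (unadjusted p = 0.117). ADU-S100 and olaparib exceeded vehicle by 0.98 and 0.999 (SE 0.63, adjusted p = 0.809 and 0.582), and overlapped it. The first was 0.47 without vehicle tumor 1536, and the second 0.40 without olaparib tumor 1517.

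Against the 9 other tumors Icos was higher by 0.97 in the combination (exact permutation p = 0.109). The exact p was 0.0455 with the background subtracted and 0.0045, the smallest that 220 splits of 12 tumors can give, with each tumor scaled to the same median. Adjusted over all genes these were 0.454 and 0.149. Markers of T cells were also higher in the combination than in vehicle, while by median their sum was 436 after olaparib and 426 in the combination. The 11 T cell markers, all in the table, summed to 131 to 290 normalized counts in vehicle, 218 to 578 after ADU-S100, 170 to 922 after olaparib and 398 to 644 in the combination. Cd3e, part of the T cell receptor complex, was 6.23 to 19.3 in vehicle and 29.2 to 70.1 in the combination (log2 difference 1.75, SE 0.64, adjusted p = 0.456). It was 9.82 to 28.5 after ADU-S100 and 10.6 to 52.4 after olaparib. Relative to the mean of the 9 T cell markers that were tested, Icos in the combination differed from the other tumors by 0.20 (exact p = 0.373), and by -0.015 with the background subtracted.

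Cd28, the constitutive costimulatory receptor, was 19.1, 26.8 and 11.1 in vehicle and 88.3, 66.8 and 44.2 after ADU-S100. It was 35.1, 115 and 15.9 after olaparib and 19.4, 32.2 and 25.4 after the combination. All 3 ADU-S100 tumors were above all vehicle and all combination tumors, while olaparib ran from the lowest to the highest of the treated tumors. ADU-S100 exceeded vehicle by 1.78 (SE 0.64, unadjusted p = 0.0170, adjusted p = 0.809 by limma), and the combination was 1.31 below ADU-S100 (log2 difference -1.31, SE 0.64, unadjusted p = 0.0634, adjusted p = 0.531). The combination differed from vehicle by 0.47 (SE 0.64, adjusted p = 0.989). This difference was 0.15 without vehicle tumor 1536, 0.75 without vehicle tumor 1529 and 0.045 with quantile normalization.

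The counts behind Cd28 differed less between groups than the normalized values. Before scaling, Cd28 had 31, 34 and 31 counts in the ADU-S100 tumors, 28, 18 and 16 in vehicle and 24, 39 and 31 in the combination, or 4.77 to 6.80, 2.67 to 4.67 and 4 to 5.57 times background. The value of 1 count was 1.43 to 2.85 in the ADU-S100 tumors, 0.682 to 1.49 in vehicle and 0.810 to 0.824 in the combination. With each tumor scaled to the same median, the differences of ADU-S100 from vehicle and of the combination from ADU-S100 were 1.37 and -1.11, and with the background subtracted 1.96 and -1.36. The T cell markers were 218 to 578 after ADU-S100, below the combination in their lowest and highest sums.

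Cd40lg, the T cell ligand of CD40, was the least well measured member, with 8 to 29 counts. It was 12.3, 16.4 and 8.31 in vehicle, 48.4, 35.4 and 21.4 after ADU-S100, 15.6, 115 and 10.02 after olaparib and 15.4, 23.9 and 21.3 after the combination. The ADU-S100 tumors were above all vehicle tumors, and the value of 115 in olaparib tumor 1517 is 11 counts, as is that of Cd28 in the same tumor. ADU-S100 differed from vehicle by 1.41 (SE 0.74, unadjusted p = 0.0836, adjusted p = 0.809 by limma). Without olaparib tumor 1517, the difference between combination and olaparib turned from -0.41 to 0.63.

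**Figure D3:**
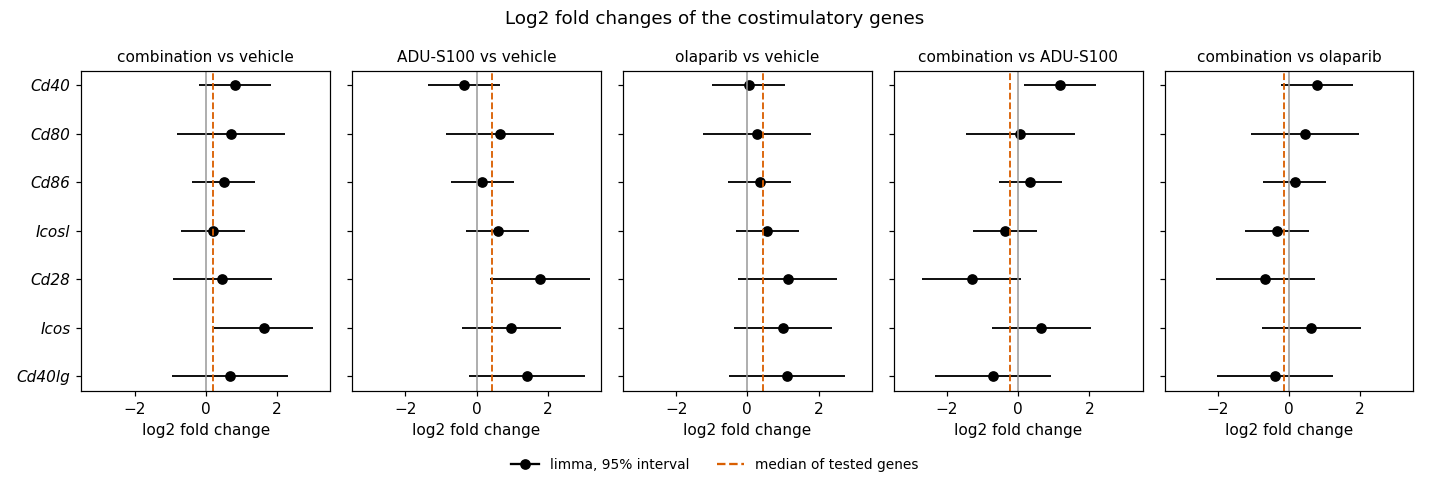
Log2 fold changes of the 7 genes in 5 comparisons (limma, points, with 95% intervals as bars), on log2(normalized count + 1) with 3 tumors per group. Gray lines mark 0 and dashed lines the median of all tested genes. The intervals of Icos in the combination against vehicle, of Cd28 in ADU-S100 against vehicle and of Cd40 against ADU-S100 do not reach 0 before adjustment.

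Read together by comparison, all 7 members were above vehicle in the combination, with a median log2 difference of 0.70 against 0.21 over all 689 genes, of which 65.3% were above 0. Of the members only Icos was higher at an unadjusted p under 0.05, where 7.55% of all genes were, and only Icos lay above all vehicle tumors, where 18.4% of all genes did. By mean, 6 members were also above vehicle after ADU-S100 alone and all 7 after olaparib alone, where 78.2% and 74.6% of all genes were above 0. ADU-S100 alone gave a median of 0.66 (0.44 over all genes), with Cd28 at an unadjusted p under 0.05 (4.64% of genes higher) and 2 members, Cd28 and Cd40lg, above all vehicle tumors (13.9% of genes). Olaparib alone gave 0.56 (0.45 over all genes), with 0 members at an unadjusted p under 0.05 (5.81% of genes higher and 1.45% lower) and 0 without overlap (3.77% of genes higher and 1.02% lower). These 3 comparisons share the vehicle tumors.

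Against ADU-S100, the combination had 4 members above 0 and 3 below. Cd40 was higher at an unadjusted p under 0.05 (4.5% of genes, with 4.64% lower) and without overlap (10.4% of genes), and Cd28 was lower without overlap (20.9% of genes). Against olaparib, 1 member, Cd40, was higher without overlap (11% of genes), and 0 were past an unadjusted p of 0.05 (4.5% of genes higher and 2.76% lower). ADU-S100 and olaparib differed by -0.38 to 0.65 over the 7 members (adjusted p = 0.998 for each), and 0 were past an unadjusted p of 0.05 (1.89% of genes higher and 0.145% lower).

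By mean log2 value, the combination ranked first for Cd40, Cd80, Cd86 and Icos. ADU-S100 ranked first for Icosl, Cd28 and Cd40lg, followed by olaparib and then the combination. Vehicle was lowest for all members but Cd40, for which ADU-S100 was lowest. Groups next to each other in these orders were not told apart for any member. Of these 21 differences 0 passed an unadjusted p of 0.05 by limma, and the lowest adjusted p was 0.630, for Cd40 in combination and olaparib.

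The interaction asks whether ADU-S100 had another effect with olaparib than without it. It was -2.44 for Cd28 (SE 0.90, unadjusted p = 0.0198, adjusted p = 0.346 by limma), the only member at an unadjusted p under 0.05, where 9% of all genes were lower. With the tumor number block it was -2.50, with an unadjusted limma p of 0.0606. Leaving out olaparib tumor 1521 gave -3.09 with an adjusted p of 0.0288, and leaving out any other single tumor gave adjusted p-values from 0.334 to 0.637. Without 1521 the unadjusted p was 0.0023 by limma, and an adjusted p so close to it means that many other genes passed in the same fit. Cd40 had the opposite sign at 1.14 (SE 0.65, adjusted p = 0.439). Its interaction was 1.70 with each tumor scaled to the same median, 2.23 with quantile normalization, 2.30 with the background subtracted and 1.88 with the tumor number block, all at an unadjusted p under 0.05 and with adjusted p from 0.254 to 0.896 by limma. By comparison, the median was -0.35 over the members and -0.55 over all genes.

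Differences between genes of the same tumor do not depend on the scaling of that tumor, apart from the pseudocount. They were taken for 6 pairs, the ligands with their receptors, Cd80 with Cd86 and Cd28 with Icos. This measure was chosen after the values were seen and is given as a description, with no test. Cd28 minus Icos was -1.13, -0.80 and -0.85 in the combination, and -0.075 to 1.46 in the 9 other tumors. Every combination tumor thus had less Cd28 relative to Icos than every other tumor, with a log2 difference of -1.47 or 2.77-fold lower. Within the tumors numbered 15, 1539 was at -0.85 and the 8 others at -0.075 or more.

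Icos minus its ligand Icosl was -1.67, -1.22 and -1.57 in the combination and -3.81 to -1.82 in the others, which was again without overlap (difference 1.14). The combination overlapped the other tumors in the other 4 pairs. For scale, Icos minus each of the 688 other genes in turn was higher in the combination without overlap for 26.3% of genes, and Cd28 minus each of the others was lower without overlap for 4.22%. With the background subtracted the differences of these pairs were -1.88 and 1.57.

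**Figure D4:**
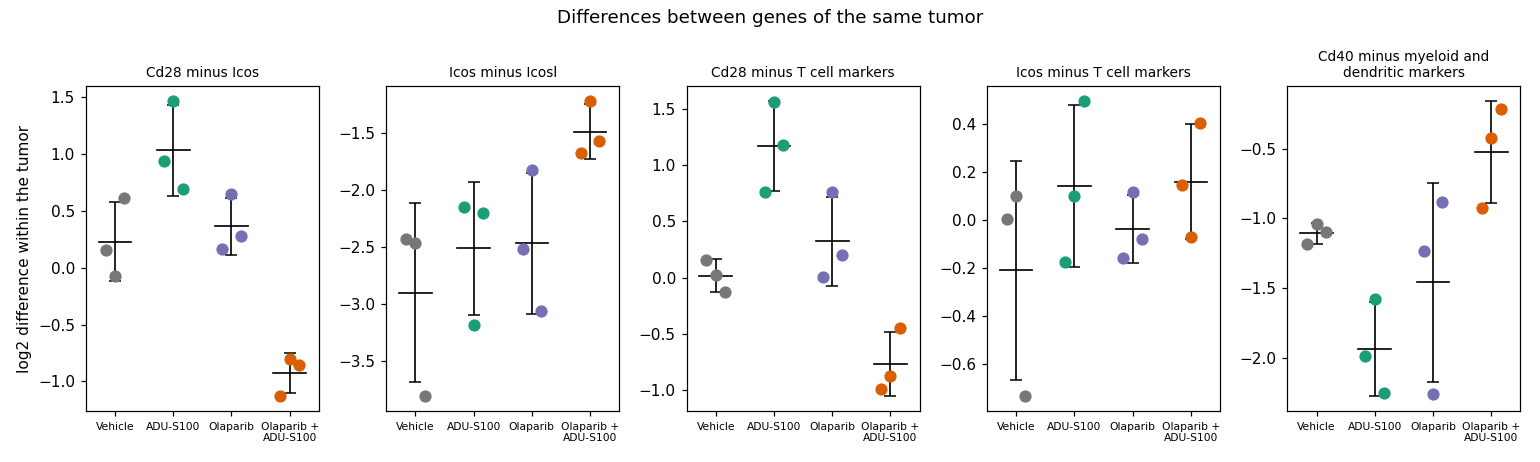
Differences between log2 values of the same tumor, by group, for Cd28 minus Icos, Icos minus Icosl, and Cd28, Icos and Cd40 minus the mean of cell markers. Points are tumors and bars mean and SD (n = 3), with a separate vertical axis in each panel. The combination tumors lie below all 9 others for Cd28 minus Icos and for Cd28 minus T cell markers.

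Members were also set against markers of the cells that carry them. Relative to the mean of 9 T cell markers, Cd28 in the combination differed from the 9 other tumors by -1.27, and all 9 lay above the highest combination tumor (exact permutation p = 0.0136, adjusted 0.127 over 14 such comparisons). Cd40lg relative to T cell markers differed by -0.91 (exact p = 0.0364, adjusted 0.170). The exact p was 0.0864 with quantile normalization and 0.123 with the background subtracted. By themselves Cd28 and Cd40lg differed by -0.50 and -0.14 (exact permutation p = 0.459 and 0.855), and the remainder is a rise of the T cell markers. How many of all genes would lie lower relative to these markers was not tested. Cd40 relative to the mean of 21 myeloid and dendritic markers was 0.98 higher in the combination, with 8 of the 9 others below (exact p = 0.0182, adjusted 0.127, and 0.0545 unadjusted with quantile normalization). Cd86 relative to the same markers differed by 0.38 (exact p = 0.0727, adjusted 0.255), Cd80 by 0.46 (0.232, adjusted 0.406) and Icosl by -0.12 (0.486, adjusted 0.619). Relative to Ptprc, which encodes the leukocyte antigen CD45, the lowest exact permutation p was 0.105, for Cd40.

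Markers of the cells that could carry these genes were measured as well. Dendritic cell markers (10 of 14 in the table) summed to 334 to 635 in vehicle, 400 to 946 after ADU-S100, 404 to 1299 after olaparib and 693 to 834 in the combination. Itgax, which encodes CD11c, was 63.0 to 95.1 in vehicle and 145 to 222 in the combination (log2 difference 1.16, SE 0.37, adjusted p = 0.347). Macrophage and monocyte markers (12 of 12) overlapped between all groups, from 3986 to 9417, as did Ptprc, from 152 to 1003. B cell markers were low, with 4 to 6 of the 8 genes at or under 2 times background in every tumor of a group, and sums of 46.4 to 113 in vehicle and 89.1 to 147 in the combination. Epcam, the epithelial marker, had at least 437 counts in every tumor. Stroma markers (8 of 10) summed to 16894 to 90204 in vehicle (median 54799), 32916 to 57018 after ADU-S100 (43516), 4577 to 37401 after olaparib (17334) and 14430 to 28196 in the combination (14726), and their part in the differences of the members was not tested. The part of cell numbers in the differences of Cd40 and Icos was not tested beyond the values relative to markers.

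Across the 12 tumors, the ligands Cd80 and Cd86 had the highest correlation of 6 pairs (Pearson r = 0.73, permutation p = 0.0065, adjusted 0.0392, Spearman rho = 0.62, p = 0.0356, adjusted 0.0965). Without the 2 tumors farthest in Cd80 r was 0.43, and among the 9 tumors numbered 15 it was 0.58 (permutation p = 0.102). Cd28 and Icos had r = 0.67 (permutation p = 0.0167, adjusted 0.05004, rho = 0.60, p = 0.0425), 0.51 without the 2 farthest tumors and 0.80 within the tumors numbered 15. Icos and Icosl had r = 0.61 (permutation p = 0.0353, adjusted 0.0707), and 0.36 without the 2 farthest tumors. All values of a tumor share its step, and with each tumor scaled to the same median these correlations were 0.37, 0.27 and -0.12. They thus depend on the scaling, and fell when the farthest tumors were left out. Cd40 and Cd40lg were not related on the deposited scale (r = 0.016, permutation p = 0.960). Tumors numbered 12 were too few for a value.

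The genes most like each member over the 12 tumors, after each tumor was centered on its median, included other members. For Cd86 they were Itgax (r = 0.89), Cd40 (0.86) and Bcl10 (0.85), and for Cd40 they were Selplg (0.88), Cd86 (0.86) and the class II gene H2-Aa (0.85). For Icos they were Slamf7 (0.92), Xcl1 (0.90) and Cd3e (0.89). Cd28 was most like Cd40lg (0.86), Il19 (0.86) and C9 (0.86), and Cd40lg most like Gzmk (0.89), Gzmb (0.89) and Cd28 (0.86). For Icosl they were Il1a (0.89), Pvr (0.86) and Itgb4 (0.85), and for Cd80 Mefv (0.73), Cxcr2 (0.67) and Ctsw (0.67). On the deposited scale the r of these 21 gene pairs was 0.29 to 0.96, lowest for Cd86 with Bcl10 (0.29), Icosl with Itgb4 (0.30) and Icosl with Il1a (0.52).

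Inhibitory receptors and ligands, not all of them (Havcr2, for one) of the B7 and CD28 families, were measured alongside. Of 10 inhibitory receptors and ligands, 9 were tested, and 8 were above vehicle in the combination, with a median log2 difference of 0.73 (0.21 over all genes). They ranged from Cd276 at -0.40 (SE 0.42), the gene of B7-H3, to Pdcd1 at 1.35 (SE 0.67, adjusted p = 0.652), the gene of PD-1, and 0 passed an unadjusted p of 0.05. Single treatments also had 8 of 9 above vehicle, with medians of 0.94 for ADU-S100 and 0.83 for olaparib, where 78.2% and 74.6% of all genes were above 0. After olaparib 2 of the 9 were at an unadjusted p under 0.05, Havcr2 at 1.48 and Cd276 at -1.11 (adjusted p = 0.582 and 0.577 by limma), where 5.81% of all genes were higher and 1.45% lower at that threshold. Of 12 genes of costimulatory TNF superfamily pairs, 8 were tested and 7 were above vehicle, with a median of 0.20, from Tnfsf18 at -0.07 to Tnfsf8 at 0.75, and 0 passed. The median of all genes was 0.21, with 65.3% above 0 and 7.55% higher at an unadjusted p under 0.05. ADU-S100 and olaparib alone also had 7 of 8 of the TNF superfamily genes above vehicle, with medians of 0.83 and 0.69, and 1 of 8 was above 0 in the combination against each of the 2. Of all genes, 40.3% were above 0 against ADU-S100 (median -0.22) and 41.4% against olaparib (median -0.15).

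Of 21 genes of signaling downstream of CD40 and CD28 and of their outputs, 18 were tested. In the combination 14 of them were above vehicle, with a median of 0.32 (65.3% of all genes, median 0.21). Nfatc2, a transcription factor activated in T cells, was lowest at -0.40 (SE 0.58), and Il2ra, the alpha chain of the interleukin-2 receptor that appears on activated T cells, was highest at 1.89 (SE 0.48, unadjusted p = 0.0021, adjusted p = 0.278 by limma). The only other gene of the list at an unadjusted p under 0.05 was Il12b at 1.79 (SE 0.53, adjusted p = 0.278), a subunit of interleukin-12, which antigen-presenting cells release on CD40 engagement. It was picked out by that p-value, and 7.55% of all genes were higher at that threshold. After ADU-S100 alone, 17 of the 18 were above vehicle (78.2% of all genes), with a median of 0.33 (0.44 over all genes). There 0 passed an unadjusted p of 0.05, where 4.64% of all genes were higher. After olaparib alone, 16 of the 18 were above vehicle with a median of 0.52 (0.45 over all genes), and 5 passed an unadjusted p of 0.05, namely Nfkb1 (0.99), Nfkb2 (1.07), Relb (1.03), Il2ra (1.24) and Bcl2l1 (1.25), which are named for that p-value, where 5.81% of all genes were higher. In the combination against olaparib, 7 of 18 were above 0 (41.4% of all genes), and Nfatc2 differed by -1.52 (SE 0.58, adjusted p = 0.594 by limma), where 2.76% of all genes were lower at an unadjusted p under 0.05. In the combination against ADU-S100, 10 of 18 were above 0 (40.3% of all genes), and Il12b at 1.61 and Il2ra at 1.23 were the 2 at an unadjusted p under 0.05 (adjusted p = 0.492 each by limma), where 4.5% of all genes were higher. No gene of these lists passed an adjusted p of 0.05 in any comparison.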

How the data were processed

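Normalized mRNA counts of 750 genes in 12 tumors (4 groups of 3, assigned from the labels) were analyzed. The values, a linear signal, were deposited after the authors had run quality control and background correction and scaled each tumor by positive controls and housekeeping genes in nSolver 4.0, discarding raw counts under the negative controls. No control probe was used here. Values above the floor of 1 were whole multiples of one step per tumor (100% within 0.01 of a count), which gave the counts before scaling and the background (median of the 30 lowest genes). The form of the authors' background correction is not stated, so that multiples of background refer to what remained after it. The number of counts limits the precision of low genes.

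Values were analyzed as log2(value + 1), which understates changes of low genes. Genes with at least 20 in at least 3 tumors (689) entered limma 3.58.1 in R 4.3.3, with 1 mean per group over all 12 tumors and Benjamini-Hochberg adjustment over all genes tested. Exact permutation tests were two-sided. With 3 tumors against 3 they cannot go below 0.1, and with 3 against 9 not below 0.0045. Correlations used 100000 permutations. The tests were tried on simulated data. The members and lists were chosen with earlier results of these data known. Named genes are the 7 members, the 3 genes most like each, the lowest and highest gene of each list and Ptprc, Cd3e, Itgax and Epcam. Il12b, Nfkb1, Nfkb2, Relb, Bcl2l1 and Havcr2 were named after their p-values were seen, and 1 further marker is not reported here. All 7 symbols matched the RefSeq gene table, and Emr1 stands for Adgre1. The limma comparisons were recomputed with a pseudocount of 10, without the filter or with 50 in its place, equal medians, quantile normalization, background subtraction, separate fits of each comparison, a t-test as in the methods, a block for the first digits of the tumor number, and omission of single tumors (the interaction without separate fits or the t-test). The permutation results and correlations were recomputed with the pseudocount, without single tumors and under some of the other scalings. Alternatives for pair differences were added after seeing the data. Figures were drawn with matplotlib 3.10.9.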

Additional observations from a re-analysis of the deposited data

Results flagged for a closer look

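For 3 members every ADU-S100 tumor was above the vehicle mean while every combination tumor was below the olaparib mean. They were Cd28 (interaction -2.44, adjusted p = 0.346 by limma), Cd40lg (-1.82, SE 1.05, adjusted p = 0.439) and Icosl (-0.94, SE 0.58, adjusted p = 0.451). None passed the test of the difference. The olaparib means of all 3 include tumor 1517, which had 11, 11 and 25 counts of these genes. Without it the interactions were -1.70, -0.78 and -0.66, and 1, 0 and 3 of the 3 combination tumors were below the olaparib mean, so that the pattern ended for Cd28 and Cd40lg.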

How the results depend on the processing

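No member passed an adjusted p of 0.05 in any limma comparison under the alternatives run, except Cd28 in the interaction without olaparib tumor 1521, so that the number of members called there was 0 to 1 when single tumors were left out. Many other genes passed with Cd28 in that fit, and their share is not given. The 2 edgeR alternatives were not run. No paired analysis was possible because the tumor numbers are not shared between groups. Of 6 correlations 1 passed, 0 at the same median and 0 to 3 without single tumors (0 without any vehicle tumor, ADU-S100 tumor 1513 or olaparib tumor 1517 or 1521). Unadjusted p-values under 0.05 were lost for Icos against vehicle without tumor 1536, 1270 or 1539, for Cd40 against ADU-S100 without 1513 or 1539, for Cd40 against the 9 other tumors without 1270 or 1539, for Cd28 after ADU-S100 without 1536 or 1506, and for its interaction without 1536. They were also lost for the Cd28 interaction with the tumor number block, for Cd40 against ADU-S100 by the t-test and against the 9 other tumors with quantile normalization, and a filter at 50 removed Icos. Relative to cell markers, they were lost for Cd40lg per T cell markers with quantile normalization (0.0864), with the background subtracted (0.123) and without 1251 or 1270, and for Cd40 per myeloid and dendritic markers with quantile normalization (0.0545) and without 1270 or 1539. Without 1510 or 1251 one was gained for Cd86 per myeloid and dendritic markers, and without 1517 for Icos per Ptprc. They were gained for the Cd40 interaction (same median, quantile, background, block), Cd40 against olaparib (t-test, background, block) and vehicle (block), Cd28 in the combination against ADU-S100 (same median, quantile, groups alone, t-test), Icos against ADU-S100 (quantile) and the 9 other tumors (same median, quantile, background), and Cd40lg in ADU-S100 against vehicle (groups alone, t-test). Leaving out olaparib tumor 1521 gained Cd28, Cd40lg and Icos after olaparib, Cd28 in the combination against olaparib and against ADU-S100, and the interactions of Cd40lg and Icosl. Tumor 1517 left out gained Cd28 in the combination against ADU-S100, Cd40lg after ADU-S100 and Icos against the other tumors, 1529 Cd40 against vehicle and 1269 the Cd40 interaction. The values below changed sign in differences and correlations whose p was not under 0.05, except the correlation of Icos with Icosl (unadjusted p = 0.0353 by permutation, n = 12), and the cause was not tested.

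With each tumor scaled to the same median, ADU-S100 against vehicle was -0.24 for Cd86, and olaparib against vehicle -0.32 for Cd40 and -0.085 for Cd80. The interaction was 0.35 for Cd80, 0.54 for Cd86 and 0.20 for Icos. The correlations were -0.57 for Cd40 with Cd40lg, -0.47 for Cd28 with Cd86 and -0.12 for Icos with Icosl. With a pseudocount of 10 that of Cd40 with Cd40lg was -0.010.

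With quantile normalization, Icosl was -0.10 in the combination against vehicle and Cd40lg 0.011 against olaparib and 0.076 against the 9 other tumors. ADU-S100 against vehicle was -0.048 for Cd80 and -0.38 for Cd86. Olaparib against vehicle was -0.76 for Cd40, -0.37 for Cd80 and -0.13 for Cd86. The interaction was 0.58, 0.61 and 0.69 for Cd80, Cd86 and Icos.

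With the background subtracted, Cd40lg in the combination was 0.078 against olaparib and 0.17 against the 9 other tumors, Icos per T cell markers -0.015, Cd40 after olaparib -0.59 against vehicle, and the interaction 0.19, 0.25 and 0.14 for Cd80, Cd86 and Icos. With the tumor number block, olaparib against vehicle was -0.21 for Cd40 and -0.019 for Cd80, and the interaction 0.65 for Cd80 and 0.45 for Cd86.

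Leaving out single tumors gave these ranges. Combination against olaparib ran from -1.31 to 0.083 for Cd28, -1.07 to 0.63 for Cd40lg, -0.17 to 1.05 for Cd80 and -0.093 to 0.28 for Cd86, and combination against ADU-S100 from -0.19 to 0.42 for Cd80. ADU-S100 against vehicle ran from -0.69 to 0.059 for Cd40 and -0.053 to 0.48 for Cd86, and olaparib against vehicle from -0.31 to 0.36 for Cd40 and -0.37 to 0.89 for Cd80. The interaction ran from -0.83 to 0.43 for Cd80, -0.32 to 0.21 for Cd86 and -0.95 to 0.25 for Icos. Against the 9 other tumors Cd40lg ran from -0.31 to 0.15 and Cd80 minus Cd86 from -0.046 to 0.23, and the correlation of Cd40 with Cd40lg from -0.089 to 0.11.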
